A study of Danio rerio with 8 samples.

Results

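The 8 rows named setb, nudc, cmc2, DTWD2, TPRX1, phc2b, ate1 and hps1 stand among the strongest rises in early zebrafish embryos grown with SU5402. This compound blocks the kinases of fibroblast growth factor (FGF) receptors. The rows were picked by symbol from a table of 33843 assembled loci, of which 12757 had been tested. They were picked because their level was higher under SU5402 and the authors had called that rise. The symbols are those of that table. RefSeq places phc2b on another chromosome than the row that rose, and it lists no gene named TPRX1. RNA-seq was done on whole wild-type embryos at the dome stage, a blastula stage, with 2 SU5402 samples and 2 control samples. SU5402 was in the medium at 20 µM from the 2-cell stage, and control embryos received an equal volume of the solvent DMSO. The authors pooled each pair into 1 value per condition, given as FPKM (fragments scaled to transcript length and to library size), so no value below has a replicate error. The 4 ATAC-seq samples of the series were not used here. The strain, the clutch and the number of embryos per sample are not stated in the labels, so the authors' p-values may reflect technical variation between libraries alone. In whole embryos fewer cells of a type and less RNA per cell cannot be told apart.

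FGF ligands act through receptor tyrosine kinases on the Ras and ERK cascade, and in the fish blastula this pathway takes part in mesoderm formation, dorsal fate and neural induction. SU5402 also inhibits the kinase of a vascular endothelial growth factor receptor. The genes that these 8 symbols name belong to no common pathway. The setb product belongs to the family of SET, a histone chaperone that also inhibits protein phosphatase 2A (PP2A). The nudc product works with the dynein motor and with the chaperone HSP90 in nuclear movement. In yeast and human cells CMC2 is a mitochondrial protein needed to build cytochrome c oxidase, and in human cells DTWD2 modifies a uridine in tRNA. TPRX1 is a homeobox gene of the first divisions in human embryos, but no RefSeq symbol matched the zebrafish row of that name. Polyhomeotic proteins, to which phc2b belongs, are subunits of the Polycomb complex PRC1. The row of that name that rose may not be this gene, since RefSeq places phc2b on chromosome 6 and the row lies on chromosome 1. The product of ate1 adds arginine to protein ends and so marks proteins for the N-degron pathway, and hps1 encodes a subunit of BLOC-3, a factor for lysosome-related organelles such as melanosomes.

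The stage label was set beside marker lists, which cannot fix the stage, since no sample of another stage was compared. Of 16 dome-stage markers found, 15 reached 1 FPKM in the higher condition, with summed levels of 3346 FPKM in control and 5819 in SU5402. Most of the difference between these sums was tbx16, at 634 FPKM in control and 2680 in SU5402. The 15 markers had a median log2 change of -0.12, and 6 of them had a change above 0. The authors' deposited table called tbx16, apoeb and blf higher and ntla, cldne and zgc:171779 lower, 6 of 15 or 40.0%, where 5.64% of all tested loci were called. Of 27 markers of cell types that form later, 23 stayed under 1 FPKM and 8 of these were listed at 0 in both conditions. Summed levels of the 27 were 9.89 FPKM in control and 12.2 in SU5402. The other 4 reached 1 FPKM, and 2 of them were tested and not called. These were elavl3, at 0.943 FPKM in control and 2.18 in SU5402, and lcp1, at 3.09 and 3.10.

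Among transcripts of the nucleus and cytoplasm, setb and nudc were already abundant in control embryos and became some of the most abundant RNAs of the SU5402 embryo. In the authors' deposited table setb had 648 FPKM in the control and 3287 FPKM in the SU5402 embryos, a 5.07-fold difference. It ranked 46 of all loci in control and 5 in SU5402, where the 4 rows above it all came from the mitochondrial genome. The nuclear movement gene nudc was listed at 332 and 1381 FPKM in the authors' deposited table, 4.16-fold higher, and went from rank 134 to rank 16. Of the summed FPKM of the whole table, setb alone took 0.136% in control and 0.636% in SU5402.

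The row named phc2b and the TPRX1 row also belong to the abundant class. The phc2b row was listed at 286 and 1230.1 FPKM in the authors' deposited table, 4.31-fold higher under SU5402, and TPRX1 at 153 and 777 FPKM, 5.09-fold higher. Their ranks moved from 176 to 21 and from 441 to 44. Both rows thus came close to the top of the table in SU5402.

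The other 4 members were of middle or low abundance. The tRNA modification gene DTWD2 had the largest fold of the 8, at 28.3 and 209 FPKM in the authors' deposited table (7.40-fold). The cytochrome oxidase assembly gene cmc2 was listed at 27.3 and 127 FPKM there (4.65-fold). The arginyltransferase gene ate1 had 4.92 and 18.6 FPKM (3.78-fold) and hps1 had 1.55 and 5.68 FPKM (3.66-fold), the lowest level and the smallest fold of the 8. Together the 8 rows held 0.310% of the summed FPKM in control and 1.36% in SU5402, and most of that gain was the 2639 FPKM of setb, the 1049 of nudc and the 944 of the phc2b row.

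**Figure D1:**
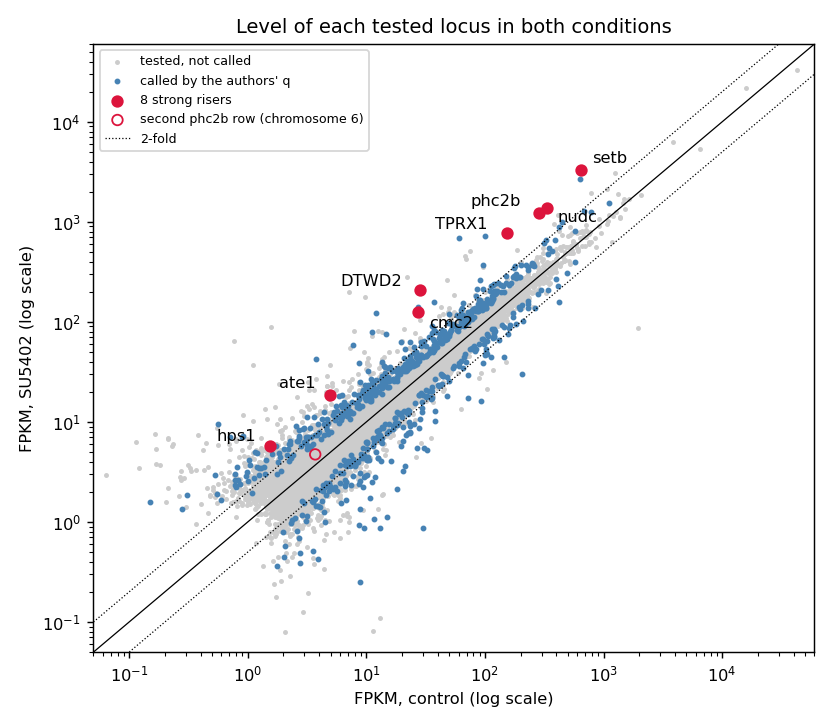
FPKM of each tested locus listed above 0 in both conditions, in control (x axis) and SU5402 embryos (y axis), both on log scales, with 1 pooled value per condition. The filled red points are the 8 strong risers, which all lie above the upper 2-fold line, from hps1 at 1.55 and 5.68 FPKM to setb at 648 and 3287 FPKM, while the open red circle is the second phc2b row at 3.71 and 4.74 FPKM.

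These folds and calls chose the members, so they are a description and no test of them. All 8 were called by the authors' q of at most 0.05 and all 8 were at least 2-fold higher, against 3.58% of all tested loci called higher and 4.84% at least 2-fold higher, and nothing is read from these counts. Equal folds did not carry equal statistics. In the authors' deposited table setb and TPRX1 had nearly the same log2 change, 2.34 and 2.35, but test statistics, a score of the change over its estimated error, of 9.51 and 2.16, with q = 0.000383 and q = 0.00680. The statistic was 8.26 for cmc2, 7.47 for the phc2b row, 5.08 for DTWD2 and 4.06 for nudc, all with that same lowest q, and 2.27 for hps1 (q = 0.00702) and 2.09 for ate1 (q = 0.0235). After a Benjamini-Hochberg adjustment of the authors' p over all 12757 tested loci, passed by 0.996% of them as higher, 5 members passed (adjusted p = 0.00591 for each) and 3 did not: TPRX1 at 0.0703, hps1 at 0.0717 and ate1 at 0.161.

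Down to hps1, ordered by log2 change among called loci that reached 1 FPKM in each condition, there were 23 rows. The 8 members shared that range with 9 rows without a gene name and 6 others, among them the selenoprotein gene sepw1 and the T-box gene tbx16. Just inside the range lay ate1 at a log2 change of 1.92 and hps1 at 1.87, and just outside it a pair of unnamed rows at 1.84 and 1.83 and the glycosyltransferase gene mgat3 at 1.81.

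A rise of an assembled locus can belong to a neighbour whose reads it shares, so every row at and around the 8 loci was read. Within 100 kb of the members there were 55 other rows, 28 of them tested. Of these 28, the authors' deposited table called 1 higher and 1 lower, 7.14% in all, against 5.64% of all tested loci (3.58% higher and 2.06% lower). The median log2 change of the 28 was 0.22, beside 0.04 for all tested loci with a finite change.

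At setb the flanking genes were nearly level. On the Zv9 build setb lay alone at chr21:11428691-11432654. The spectrin gene spna2, 1641 bp to its left, had 19.5 and 22.5 FPKM, and specc1lb, 2338 bp to its right, had 22.9 and 23.4 FPKM in control and SU5402. None of the 6 tested rows within 100 kb was called, and their log2 changes ran from 0.03 to 0.35.

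The nudc locus (chr19:30610948-30615328) lay beside a gene that went the other way. Its neighbour at 18528 bp was ntla, the brachyury T-box gene of mesoderm and an FGF target, which in the authors' deposited table fell from 20.3 to 3.25 FPKM (q = 0.000383), while nudc stood 4.16-fold higher. The RefSeq assembly GRCz12tu also lists tbxta, the current name of ntla, directly next to nudc. The orphan receptor gene nr0b2b, on the other side, had 0.282 FPKM in control, was listed at 0 in SU5402 and was not tested.

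For cmc2 (chr18:29838897-29847885), the kinetochore gene cenpn began 558 bp from its end. It had 32.2 FPKM in control embryos and 32.4 FPKM in SU5402 embryos (q = 0.988 in the authors' deposited table), a level close to that of cmc2 in control and far below it in SU5402. The region of cmc2 held no other row.

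DTWD2 shared its region (chr21:231586-249424) with bxdc2, a ribosome biogenesis gene. The bxdc2 row had 16.3 and 19.1 FPKM and was not called (q = 0.853 in the authors' deposited table). NUP54, a nuclear pore gene 175 bp further on, had 23.8 and 22.6 FPKM, and the lipid transfer gene STARD4, 313 bp to the left, was nearly silent at 0.228 FPKM in control and listed at 0 in SU5402. Summed over both rows of the region, the log2 change was 2.36 in place of 2.89, and none of the 8 tested rows within 100 kb was called. RefSeq lists bxdc2 and stard4 as the direct neighbours of dtwd2 as well.

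The TPRX1 region was the 1 place where a neighbour was called in the same direction. It spans 71396 bp (chr15:45650625-45722020) and holds 4 rows. Of the other 3, an unnamed row had 36.6 and 40.5 FPKM and was not called (q = 0.840 in the authors' deposited table), another unnamed row had 2.08 and 1.51 FPKM, and a second TPRX1 row had 0.0734 and 0.291 FPKM, the last pair not tested. Outside the region, CABZ01067657.1 at 13606 bp was called higher, from 5.50 to 14.3 FPKM (q = 0.00702 in the authors' deposited table). CABZ01044023.1 on the other side had 4.99 and 8.36 FPKM (q = 0.0691), and igsf11, an adhesion gene, had 2.34 and 3.50 FPKM (q = 0.338). Summed over the 4 rows of the region, the log2 change was 2.10 in place of 2.35. No symbol in the RefSeq table matched TPRX1, whereas the other 7 members matched by name. Of the members, 5 also shared neighbours with RefSeq, which the phc2b row and ate1 did not.

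The symbol phc2b stood on a pair of unlike rows. The row that rose is 970 bp long (chr1:774685-775654), the shortest of the 8. The other row named phc2b spans 61710 bp on chromosome 6 (chr6:48078150-48139859), had 3.71 and 4.74 FPKM and was not called (q = 0.444 in the authors' deposited table). RefSeq places phc2b on chromosome 6. In the table the short row lies between SETDB2, 1659 bp away, and creg1, 596 bp away. In RefSeq the gene between creg1 and setdb2 on chromosome 1 is h2af1al, also known as h2af1o, a histone H2A variant gene, with a gene length of 958 bp, and 0 rows of the authors' table carry either of these names. The flanking genes were low: SETDB2 had 1.92 and 1.57 FPKM and was not tested, and creg1 had 1.85 and 2.91 FPKM and was not called. The rise is given here for the short chromosome 1 row, under the symbol the table gives it.

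Of 206 symbols that stood on more than 1 tested row with finite changes, the rows of a symbol differed by a median of 0.41 on the log2 scale. The pair of phc2b rows differed by 1.75, and 16 symbols (7.77%), phc2b included, differed at least that much. That difference holds the rise for which the chromosome 1 row was picked. Its place among the 206 symbols is thus a description and no test. Of other histone genes, only a few rows were read, picked after their values were seen, and no share over all histone rows was taken. These few carried no call by the authors, where 5.64% of all tested loci were called. Among them h2afva had 359 and 365 FPKM, h2afvb 385 and 334, h2afx 30.6 and 39.0, and h3f3a 2075 and 1875.

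The last pair of loci gave less to compare. The ate1 row was the only row within 100 kb on the unplaced scaffold Zv9_NA48 (positions 15556 to 87808), so it has no neighbour in the table. RefSeq places ate1 on chromosome 13 near fgfr2, an FGF receptor gene, which the table lists on chromosome 13 at 0.135 FPKM in both conditions and which was not tested. The hps1 region (chr13:41298191-41338923) also holds st3gal5l, at 0.0293 and 0.0332 FPKM. Its tested neighbours morn4, at 2.28 and 2.68 FPKM, and prkg1a, at 11.9 and 13.3 FPKM, were not called.

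**Figure D2:**
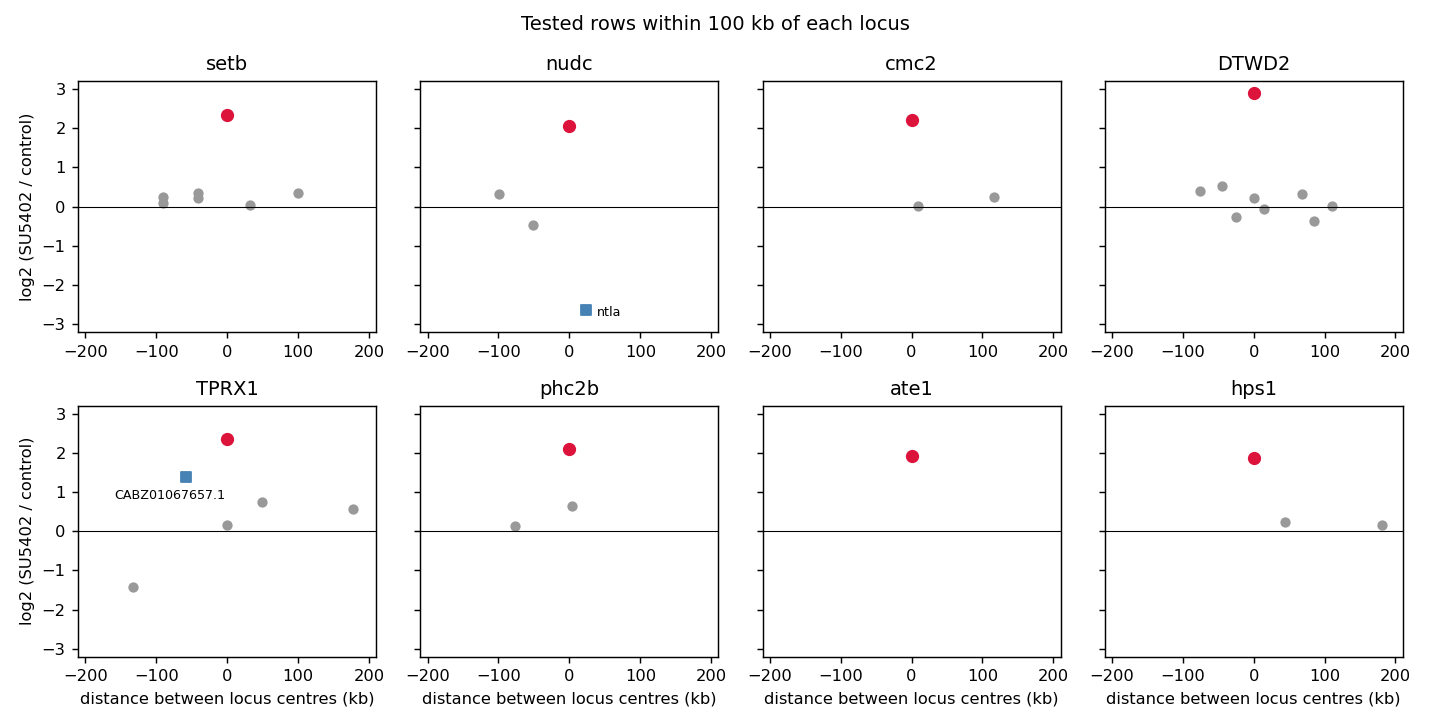
Log2 ratio of SU5402 to control FPKM (y axis) of the tested rows within 100 kb of each of the 8 loci, by the distance between locus centres in kb (x axis). Red points are the 8 strong risers, grey points rows that were not called and blue squares called rows, of which there are 2: ntla, lower, beside nudc, and CABZ01067657.1, higher, beside TPRX1.

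The setb paralog seta was nearly as abundant as setb in control, at 502 FPKM, and reached 723 FPKM in SU5402 (q = 0.274 in the authors' deposited table). Setb thus exceeded seta by little in control and by far in SU5402. The NudC domain genes had 14.6 and 12.5 FPKM (nudcd1), 9.45 and 13.4 (nudcd2) and 17.2 and 21.6 (nudcd3), all far below nudc.

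The measured relatives of cmc2, DTWD2 and phc2b, and the other measured hps genes, were all listed at lower levels than seta. The hps genes were grouped here by symbol and are not taken as 1 family. Cmc1, another cytochrome oxidase assembly gene, had 4.36 and 7.42 FPKM (q = 0.156 in the authors' deposited table), and dtwd1, the relative of DTWD2, had 7.20 and 7.17. Of the Polyhomeotic genes other than those named phc2b, phc2a was the most abundant at 73.6 and 57.9 FPKM, phc1 had 17.3 and 15.4, and phc3 had 9.52 and 9.69. They are relatives of the chromosome 1 row only by the symbol the table gives it. Hps4, whose product pairs with that of hps1 in BLOC-3, had 5.26 and 6.07 FPKM, hps5 had 5.02 and 3.35, and hps3 stayed under 1 FPKM and was not tested. In all, 0 of 11 measured family members and hps genes were called by the authors' Cuffdiff q. Of the 11, 0 had an unadjusted p under 0.05 and 0 passed the adjustment over all tested loci. With 5.64% of all tested loci called, a list of 11 without a call is near the background and is no result about these genes.

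**Figure D3:**
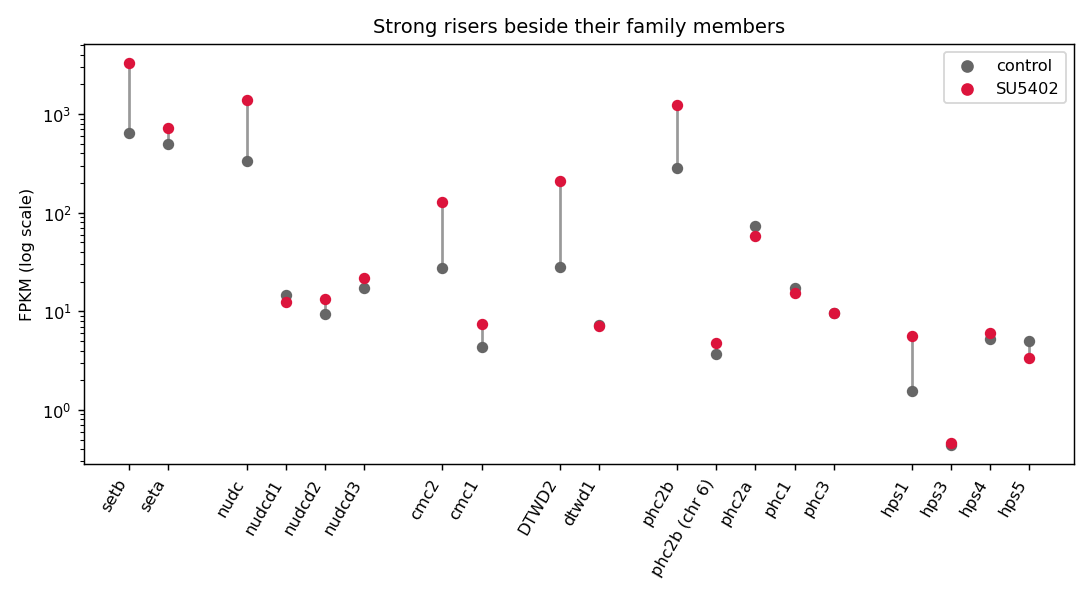
FPKM (log scale, y axis) of strong risers beside their named family members in the table or, for hps1, beside other hps genes. Grey points are control and red points SU5402, with 1 pooled value per condition. The riser drawn as phc2b is the 970 bp chromosome 1 row, under the symbol the table gives it. RefSeq places phc2b on chromosome 6, and the chromosome 6 row is drawn beside it. Among the genes beside the risers, seta is drawn at 502 and 723 FPKM, cmc1 at 4.36 and 7.42 and hps5 at 5.02 and 3.35. Setb goes from 648 to 3287 FPKM.

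Partner genes of the 8 were read from 11 lists of complexes and pathways, with the 8 rising rows left out. The second phc2b row, on chromosome 6, was kept among the PRC1 rows. Of 257 measured partner rows, 6 were called higher and 3 lower in the authors' deposited table, 3.50% in all against 5.64% of tested loci, and 248 were not called. Their median log2 change was 0.10, beside 0.04 for the 12714 tested loci that reached 1 FPKM in the higher condition and had a finite change. Scaling both conditions to the same summed FPKM lowers every log2 change by 0.11, which exceeds that median and turns it to -0.0186. Some uncalled rows had changes within the range of the 8 members, which ran from 1.87 for hps1 to 2.89 for DTWD2. They were tprkb at 2.86, the PRC1 gene cbx8a at 1.97 (0.481 and 1.88 FPKM) and the BLOC gene dtnbp1b at 1.95 (0.679 and 2.62 FPKM). All of these rows were named after their values were seen.

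For setb, 31 rows of histone chaperones and their partners were measured, and hmgb2b, a high mobility group gene, was the 1 call, higher from 366 to 514 FPKM (q = 0.0207 in the authors' deposited table). Among 15 PP2A subunit and regulator genes 0 were called by Cuffdiff's q and 0 had an unadjusted p under 0.05. The median log2 changes of these lists were 0.15 and -0.05. For nudc, the microtubule plus-end gene clip1a was the 1 call among 29 rows of dynein, dynactin and LIS1 genes, higher from 38.8 to 79.8 FPKM (q = 0.000383 in the authors' deposited table). Of 18 rows of HSP90 genes and co-chaperones, 0 were called by Cuffdiff's q and 0 had an unadjusted p under 0.05. The medians were 0.13 and 0.07. With 5.64% of all tested loci called, 0 or 1 call in lists of this size is near the background and is no result about them. The share of all tested loci with an unadjusted p under 0.05 was not taken.

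For cmc2, 0 of 22 rows of related mitochondrial and cytochrome oxidase assembly genes were called by Cuffdiff's q and 2 had an unadjusted p under 0.05. Their log2 changes ran from -0.99 to 0.77, with a median of 0.16. For DTWD2, 2 of 64 rows of tRNA modification genes were called, both higher in the authors' deposited table: the pseudouridine synthase gene pus1, from 63.6 to 139 FPKM, and the methyltransferase gene trmt2a, from 33.4 to 48.9 FPKM. The median of that list was 0.16. With 5.64% of all tested loci called, neither 0 of 22 nor 2 of 64 (3.13%) is a result about these lists. A row of tprkb, a tRNA modification gene of the KEOPS complex listed on 3 rows of 1 region, had 1.46 and 10.6 FPKM and a log2 change of 2.86 without a call (q = 0.346). The other tprkb rows had 3.53 and 7.48 FPKM and 4.39 and 6.46 FPKM.

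For the symbol TPRX1, 8 rows of paired-like homeobox genes were measured, with a median log2 change of -0.18. They go with the TPRX1 row only by its symbol, which matched none in RefSeq. The authors' deposited table called otx1a, a gene of the anterior brain, higher (2.59 to 6.47 FPKM) and the organizer gene gsc lower (9.50 to 0.866 FPKM). Both calls make 25.0% of a list of only 8 rows, where 5.64% of all tested loci were called. For the symbol phc2b, 1 of 24 PRC1 rows was called, rybpa, higher from 67.1 to 102 FPKM, and 1 of 9 PRC2 rows, suz12b, lower from 17.4 to 11.02 FPKM. The medians of both Polycomb lists were -0.02 and 0.06. For ate1, the mitochondrial methionine aminopeptidase gene metap1d was the 1 call among 17 N-degron rows, lower from 9.56 to 4.66 FPKM, and the list's median was -0.06. For hps1, 0 of 22 rows of BLOC, AP-3 and vesicle tethering genes were called by Cuffdiff's q and 1 had an unadjusted p under 0.05, with a median of 0.16. Beside that share of all tested loci, the 0 or 1 calls of the Polycomb, N-degron and hps1 lists are no result about them. By the adjustment over all tested loci, which 1.65% of them passed, pus1, clip1a and gsc passed and the other 6 partner calls did not.

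**Figure D4:**
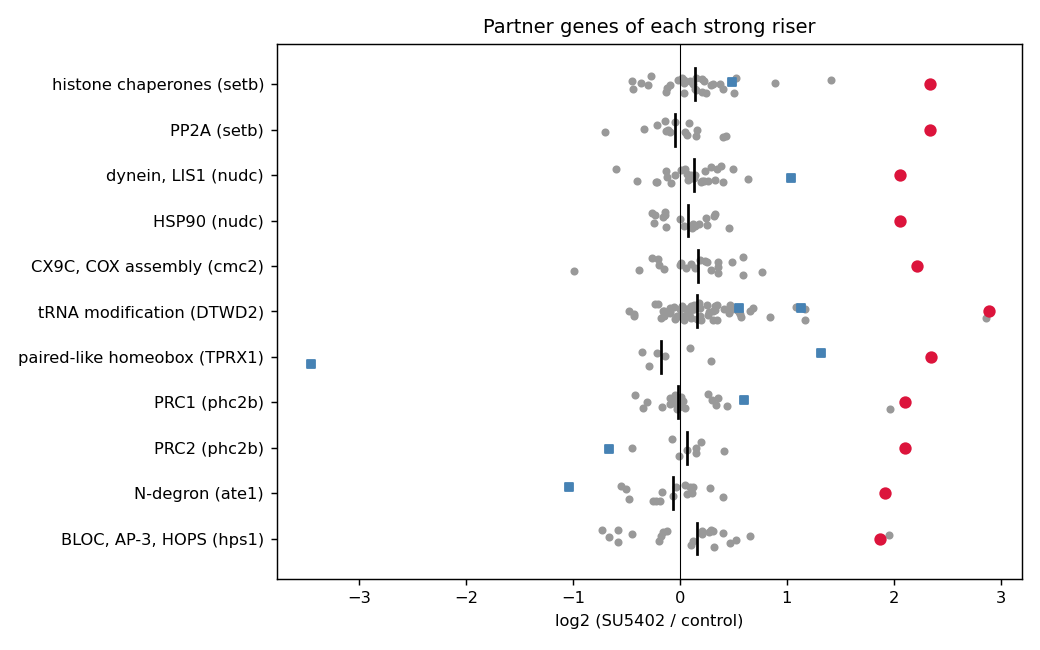
Log2 ratio of SU5402 to control FPKM (x axis) of the measured genes in 11 lists of partners (rows; the strong riser each list belongs to in brackets), with vertical bars at the list medians. Blue squares mark the called genes, grey points those not called, and red points the strong risers, which were left out of the counts. The list medians lie between -0.18 and 0.16. The red points were chosen for their rise, and 3 grey points, for tprkb, cbx8a and dtnbp1b, lie within the range of the red points.

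Of 791 tested loci at 100 FPKM or more in control, 15 (1.90%) were at least 2-fold higher and 16 at least 2-fold lower under SU5402. The 5 that were at least 3-fold higher were setb, nudc, the phc2b row, TPRX1 and tbx16, 4 of them members that had been picked for their rise. The next below them was an unnamed row with 410 FPKM in control and 1158 in SU5402, which was not called (q = 0.500 in the authors' deposited table). The share at least 2-fold higher was 6.06% of the 165 loci at 300 FPKM and over, 0.799% of the 626 at 100 to 300 FPKM, 1.83% at 10 to 100 FPKM and 5.63% at 1 to 10 FPKM, against 4.84% of all tested loci. The share at least 3-fold higher was 1.82%, 0.319%, 0.611% and 1.72% in the same order, against 2.07% of all. The authors' calls were more frequent at high levels, with 2.02% of loci at 1 to 10 FPKM in control called higher and 9.09% of those at 300 FPKM and over.

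Short loci, such as the phc2b row, more often differed 2-fold. Of 1078 tested loci under 2 kb, 19.9% were at least 2-fold higher, against 2.61% of the 5902 loci of 10 to 50 kb, although 4.73% and 3.32% were called higher. Among loci at 100 FPKM or more in control, 6 of 63 under 2 kb and 9 of 728 of 2 kb or more were at least 2-fold higher. The 6 include the phc2b row, which was picked for its rise. The rest of the 6 were unnamed rows of 100 to 307 bp, shorter than the 970 bp phc2b row. Of the rises of at least 2-fold, 2 of the 6, the phc2b row among them, and 8 of the 9 were called. The authors' q called 4.76% of the 63 and 8.38% of the 728 higher, against 3.58% of all tested loci. Setb, nudc and cmc2 fell in the class of 2 to 10 kb, where 4.72% of 3028 loci were at least 2-fold higher. The part of locus length in these rises was not tested.

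**Figure D5:**
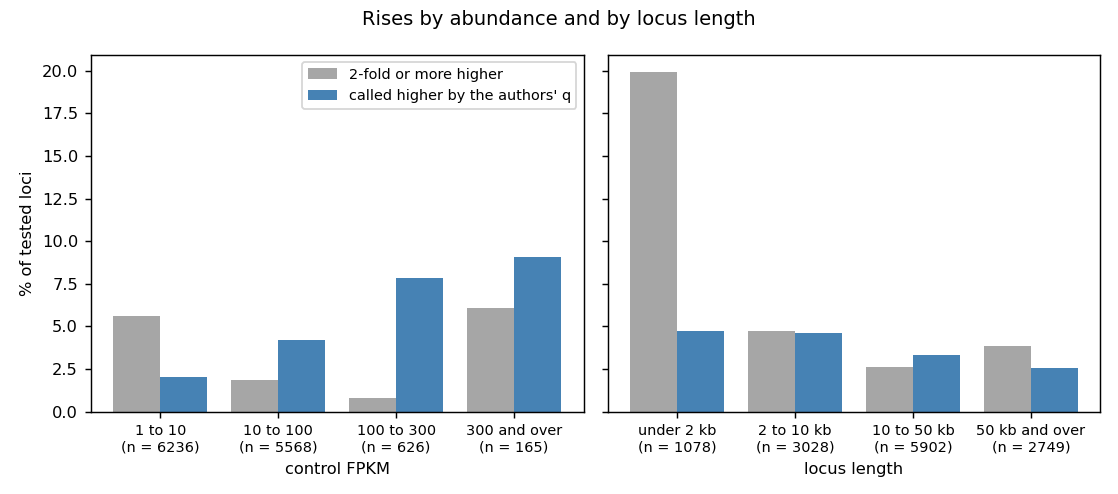
Share of tested loci (y axis, %) that were at least 2-fold higher in SU5402 (grey) or called higher by the authors' q (blue), by control FPKM on the left and by locus length on the right, with the number of loci under each class. Loci under 1 FPKM in control are not drawn on the left. The grey bar is tallest for loci under 2 kb, at 19.9%, whereas the blue bars by length stay between 2.55% and 4.73%.

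The called gene nearest to each member in both levels was sought among 599 other called rows with a name, with the members themselves left out. Distance was taken on the log2 scale over the 2 conditions. Members were thus not matched with each other, although nudc (332 and 1381 FPKM) and the phc2b row (286 and 1230 FPKM) had similar levels. For setb this was tbx16, the T-box gene of paraxial mesoderm, at 634 and 2679.9 FPKM and a distance of 0.30. For nudc and for the phc2b row it was pabpc1a, a poly(A) binding protein gene, at 424 and 894 FPKM and distances of 0.72 and 0.73. For cmc2 it was the nucleotide synthesis gene prps1b (35.8 and 91.8 FPKM, distance 0.61), and for hps1 the membrane tether gene esyt1a (1.61 and 4.75 FPKM, distance 0.26). For ate1 it was si:dkey-18j14.4, at 5.91 and 18.1 FPKM and a distance of 0.27. Among these rows DTWD2 and TPRX1 had no such close match, the nearest being zfand6 at a distance of 1.14 and SARNP at 1.09. All these distances rest on the levels by which the members were picked, so they are a description and no test.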

How the data were processed

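RNA-seq of 4 dome-stage samples was used as 1 table of the authors' comparison. Per the submitters' processing notes, TopHat2, Picard, Cufflinks and Cuffdiff were used with the build Zv9 (danRer7), whose versions the notes do not give. The deposited FPKM pools both samples of a condition, so depth is unknown and no replicate value, library size or interval can be had. The deposited log2 fold change, test statistic (a score), p-value and q-value were used unchanged, and a call is the authors' q of at most 0.05. The lowest deposited p-value, 5e-05, was shared by 108 loci, 5 members among them. Here 1 was added to each start, neighbours were read within 100 kb, and the deposited p-values were also adjusted by Benjamini-Hochberg over all 12757 tested loci (pandas 2.3.3, numpy 2.4.6), a step tested on simulated data. The deposited q is smaller than this adjusted p: at the lowest Cuffdiff p they were 0.000383 and 0.00591. By the deposited q 720 loci were called, and 210 passed the adjustment. A call alone is thus a weaker statement than passing the adjustment.

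A list row counts as measured if tested and at 1 FPKM or more in its higher condition. Members and lists were chosen with earlier results of these data known, so no list is independent evidence. Named genes are the members, rows at their loci, nearest neighbours, family members (for hps1, other hps genes) and up to 3 called genes per list and direction. Rises next to the last member are also named, as is the nearest called row in level that is not a member. Genes outside that rule were chosen after their values were seen: fgfr2, tprkb, cbx8a, dtnbp1b, dpy30, elavl3, lcp1 and the histone genes. Gene order and current names come from the RefSeq table of GRCz12tu, without its coordinates, and 7 of 8 symbols matched by name alone. No sequences were used here.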

Additional observations from a re-analysis of the deposited data

How the results depend on the processing

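No paired analysis was possible because the table gives 1 value per condition, and leaving out a replicate was not possible for the same reason. Under the Benjamini-Hochberg adjustment over all tested loci, 5 of the 8 members passed and 3 of 257 partner rows in place of 9. Of 791 loci at 100 FPKM or more in control, 28 passed as higher in place of 64 called higher. Over all tested loci 0.996% passed as higher and 3.58% were called higher. At a q of 0.01, 7 members and 3 partner rows passed. The share of all tested loci at that q was not taken, and the members were picked by their call, so nothing is read from these counts. Within 200 kb, 4 of 53 tested neighbours were called in place of 2 of 28, where 5.64% of all tested loci were called. Leaving out loci that share their region left 603 loci at 100 FPKM or more in control. Of these 44 were called higher, in place of 64 of 791. A pseudocount of 5 FPKM gave ate1 a log2 change of 1.25 and hps1 0.70, in place of 1.92 and 1.87, so the size of those low rises depends on it. The other 46 of 48 recomputed log2 changes of the members moved by less than 1.5-fold, and none of the 48 changed direction. Much of this was fixed in advance, since each scaling shifts every locus alike by 0.04 or 0.11. A region with 1 row, as 5 members have, also keeps its value when summed. The members were picked for their rise, so these counts are a description and no test. The partner genes' median log2 change of 0.10 was 0.09 with a pseudocount of 1 FPKM. In alternatives added after the data were seen, it was 0.06 after centring on the median and reversed to -0.0186 with equal summed FPKM and to -0.0101 with the same scaling but without the 100 most abundant loci. Centring on the median shifted log2 changes by 0.04, and equal summed FPKM by 0.11, both with and without the 100 most abundant loci. Depth is unknown, so counting error at low FPKM could not be given.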
